A study of Mus musculus with 14 samples.

Results

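The genes described here are the type I interferon response genes of microglia, the resident macrophages of the brain, chosen by name from interferon-stimulated genes and interferon receptors with the Stat genes left out. Of 50 symbols on the list, 47 had a row in the deposited table, out of 14217 genes in all, and the row with the highest mean was kept where a symbol had several. The table writes symbols in capitals, as IRF9, RTP4 or IFNGR1, and they are given here in mouse style. Ifi44, Ifi27 and Trim30 had no row under those symbols, and Trim30 is an older name of Trim30a, which is on the list. The libraries came from C57BL/6 mice of 6 to 8 weeks, 7 from germ-free (GF) and 7 from specific-pathogen-free (SPF) animals, with no prior treatment, and the labels name no genetic change. Microglia were isolated on a density gradient and sorted as CD11b+ cells with low CD45, at 1000 cells per brain, and sequenced from the 3' ends of their mRNA. The comparison asks how the microglial transcriptome of mice without microorganisms differs from that of colonised mice.

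Type I interferons bind the receptor chains Ifnar1 and Ifnar2, whose kinases Jak1 and Tyk2 phosphorylate Stat proteins, Stat2 among them. With Irf9 these form the complex ISGF3, which binds the interferon-stimulated response element (ISRE) in the promoters of antiviral genes. Interferon gamma uses Ifngr1 and Ifngr2 and acts mainly through another site, the gamma-activated site. A low basal level of this signalling maintains the amounts of the pathway's own factors, and microglia can both make and sense type I interferon.

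Germ-free libraries were shallower. Depth lay between 679900 and 1190040 read equivalents in GF, against 907204 to 1634063 in SPF, and 25.1% ± 1.54 of genes were at 0 in GF libraries, against 21.9% ± 1.58 in SPF libraries (SD, n = 7 each). A read was worth between 0.989 and 1.74 normalized counts in GF and between 0.675 and 1.18 in SPF. The microglial markers Csf1r, Cx3cr1 and Tmem119 were detected in every library, and the 12 markers of the list together gave 51460 to 58745 normalized counts in GF and 46975 to 54787 in SPF. GF 1 held 4179 normalized counts of 8 class II genes, linked to interferon gamma through Ciita, against at most 1102 elsewhere. It also had the highest sum of the 5 monocyte markers found, at 145 against at most 19.1 in any other library, and of the 7 T and NK cell markers found, at 23.9 against at most 5.10. GF 6 held 2259 normalized counts of 4 erythroid markers, against at most 69.1 elsewhere. Dendritic cell markers without Siglech, which microglia also express, summed to 97.8 in GF 1 and at most 19.2 in the other GF libraries. In SPF they reached at most 54.5, in SPF 6. Border macrophage markers summed to at most 21.8 in GF and 40.2 in SPF, and neutrophil markers to at most 10.1 in GF and 0 in SPF. The 2 B cell markers found gave 52.7 to 106 in GF and 53.6 to 107 in SPF, most of it Cd79b. Astrocyte, oligodendrocyte, neuronal and endothelial markers summed to at most 265, 278, 23.2 and 83.8 in GF, and to at most 257, 320, 28.3 and 98.6 in SPF, with the endothelial marker Cldn5 at 0 in all libraries. The part of these cells and of depth in the results below was not tested.

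Promoters of the list were searched for the ISRE core, because it lies at the heart of the site that ISGF3 binds. RefSeq promoters of GRCm38.p6, from 250 bases before to 50 bases after the annotated start, were found for 36 of the 47 genes. GAAA followed by any 2 bases and GAAA, on either strand, was present for 19 of these 36 genes (52.8%), against 3.99% of all 27025 genes with such a promoter, where any start site of a gene counts. Of the genes past the threshold below, Trim30a had a match, Irf9, Sp110 and Ifngr1 had none in this window, and Rtp4 had no entry. The sequences are shown for Trim30a, which fell, for Isg15 and Ifit3, standard reporters of interferon action, and for the near-identical pair Oas1a and Oas1g. Capitals mark the match, and each line reads in the direction of the gene.
Trim30a, first start site, chr7:104465210-104465239, minus strand: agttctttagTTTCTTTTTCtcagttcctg
Isg15, chr4:156200871-156200900, minus strand: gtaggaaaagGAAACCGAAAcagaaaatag
Ifit3, chr19:34583397-34583426, plus strand: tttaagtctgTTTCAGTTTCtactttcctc
Oas1a, chr5:120907520-120907549, minus strand: tcgggaaatgGAAACTGAAAatctacttcc
Oas1g, chr5:120887606-120887635, minus strand: tcgggaaatgGAAACTGAAAatctacttcc
The matches of Trim30a and Ifit3 lie on the opposite strand, and those of Isg15, Ifit3, Oas1a and Oas1g are each 1 of several in the window. The window of Oas1a is the same as that of Oas1g. The letters TTCNNNGAA, the gamma-activated site, were present for 9 of the 36 genes (25.0%), against 9.55% of all genes, and can overlap an ISRE match.

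Few interferon genes differed past the threshold, and most of those lay lower in GF. Of the 31 list genes whose mean reached 7.22 normalized counts, 4 fell in GF, namely Irf9, Rtp4, Trim30a and Sp110, and 1 rose, Ifngr1 (limma, Benjamini-Hochberg adjusted p under 0.05 over all 8821 genes tested). Over all genes tested 3.05% were called lower, 3.68% higher and 6.73% either way. In the list 25 of the 31 tested genes had a difference below 0, with a median log2 difference of -0.33, against 51.5% and -0.02 over all genes tested. At an unadjusted p under 0.05, 9 of the 31 list genes lay lower and 2 higher, against 11.1% lower and 10.8% higher over all genes tested. Fewer microglia with a response and less RNA per cell cannot be told apart in such libraries. The median of -0.33 moved to -0.12 over the 16 list genes whose mean reached 28.9 normalized counts, where all 5536 such genes had a median of 0.04. The 15 list genes below that mean had a median of -0.75, and 13 of them lay below 0, against a median of -0.17 and 61.6% over all 3285 genes in that range. Cxcl10, whose own difference was that median of -0.75, reached the minimum mean only through SPF 3. The count of falls was 2 when GF 5, SPF 2, SPF 6 or SPF 7 was left out. It was also 2, with 0 rises, without GF 1, GF 6 and the shallowest SPF library, SPF 2, together.

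**Figure D1:**
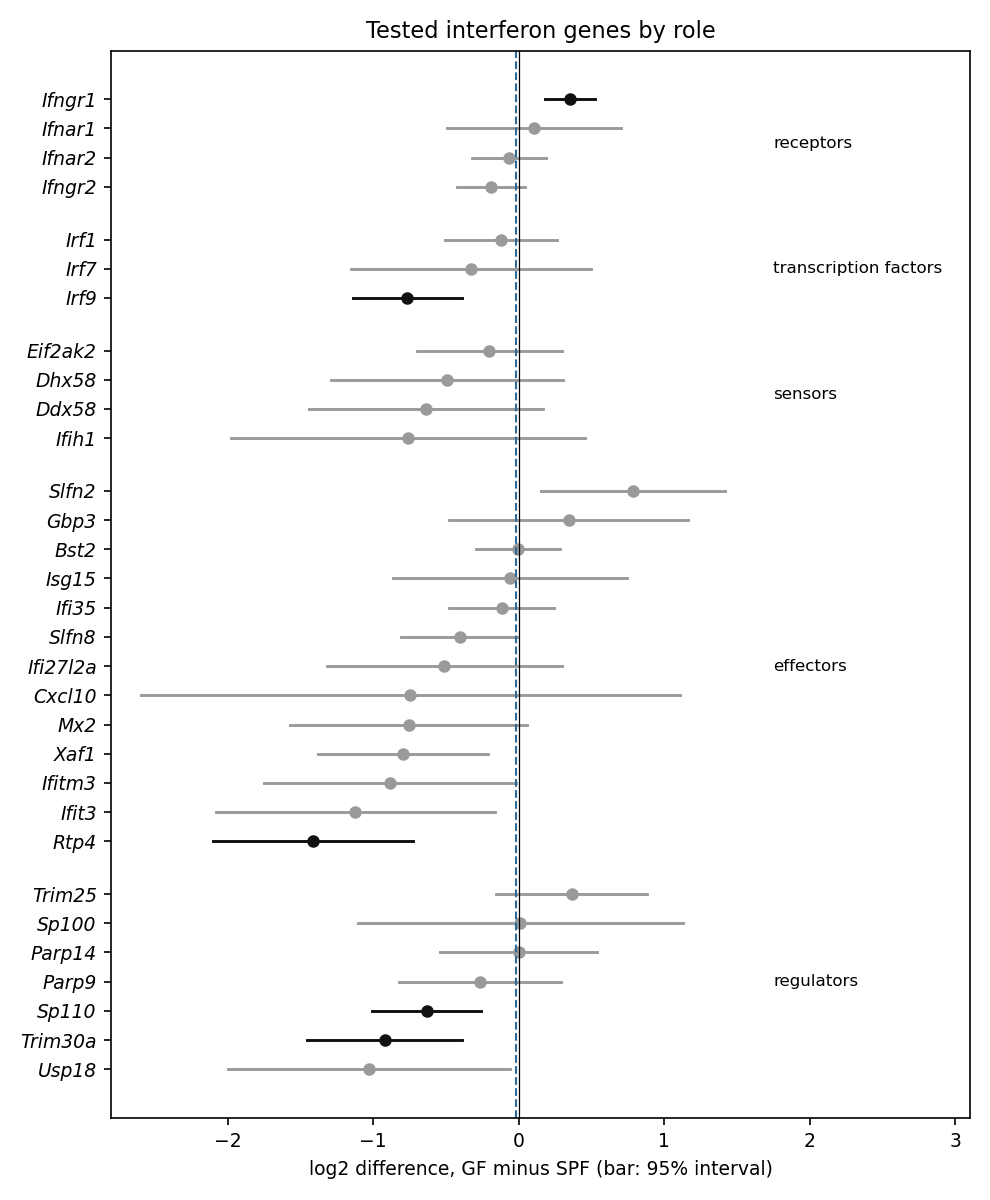
Log2 difference (GF minus SPF, x axis) of the 31 tested interferon genes, grouped by role from top to bottom, with 95% intervals from limma as bars. Black genes passed the threshold, grey ones did not, and the dashed line is the median of all genes tested at -0.02. Irf9, Rtp4, Trim30a and Sp110 lie left of it and Ifngr1 right of it.

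Among the receptors, the ligand-binding chain of the interferon gamma receptor rose and neither type I receptor chain passed. Ifngr1 lay between 1329.5 and 1794 normalized counts in GF, with a median of 1636, against 1146.5 to 1502 in SPF, with a median of 1214. In 5 of 7 GF libraries it stood above every SPF library. The log2 difference was 0.35 ± 0.08 (SE, adjusted p = 0.0105), a fold of 1.28 with a 95% interval of 1.13 to 1.44. Without GF 1, GF 6 and SPF 2 the adjusted p was 0.0681, and it was 0.109 in limma without a mean trend. Ifngr2, its signalling partner, lay between 362 and 475 in GF, with a median of 401, against 398 to 691 in SPF, with a median of 444 (log2 difference -0.19 ± 0.11 SE, adjusted p = 0.340). Ifnar2 lay between 233 and 370 in GF, with a median of 313, against 281 to 375 in SPF, with a median of 295. Its log2 difference was -0.07, with an interval of the fold from 0.799 to 1.14. Ifnar1 lay between 13.9 and 74.7 in GF, with a median of 66.7, against 36.0 to 77.4 in SPF, with a median of 46.6 (log2 difference 0.10 ± 0.29 SE, adjusted p = 0.875). The low value was that of GF 5 alone, and the interval of the fold, 0.710 to 1.63, leaves a change of either sign possible.

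Of the transcription factors, Irf9, the DNA-binding part of ISGF3, was lower in GF with no overlap between the groups. Irf9 lay between 40.8 and 59.8 normalized counts in GF, with a median of 47.3, against 61.8 to 118 in SPF, with a median of 81.9. All 7 GF libraries stood below every SPF library, as they did for 0.884% of all genes tested, and it was the single list gene among the 31 with no overlap. The log2 difference was -0.77 ± 0.18 (SE, adjusted p = 0.0101), a fold of 0.588 with an interval of 0.453 to 0.762. Irf9 stayed past the threshold in all 28 alternative settings, with an adjusted p of at most 0.0341. Irf7, which amplifies the response by driving interferon genes, lay between 5.93 and 33.8 in GF, with a median of 13.9, against 6.69 to 43.1 in SPF, with a median of 19.5 (log2 difference -0.33 ± 0.40 SE, adjusted p = 0.686). Irf1, which both interferon types induce, lay between 55.6 and 105 in GF, with a median of 83.1, against 54.4 to 119 in SPF, with a median of 97.3 (log2 difference -0.12 ± 0.19 SE, adjusted p = 0.751). The groups overlapped nearly completely for both.

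Other genes of the receptor pathway, named after their values were seen, did not pass. Stat2, a binding partner of Irf9, averaged 50.9 in GF and 80.5 in SPF, a log2 difference of -0.65 (limma, adjusted p = 0.0577). The kinase genes had log2 differences of 0.01 for Jak1 and -0.38 for Tyk2.

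**Figure D2:**
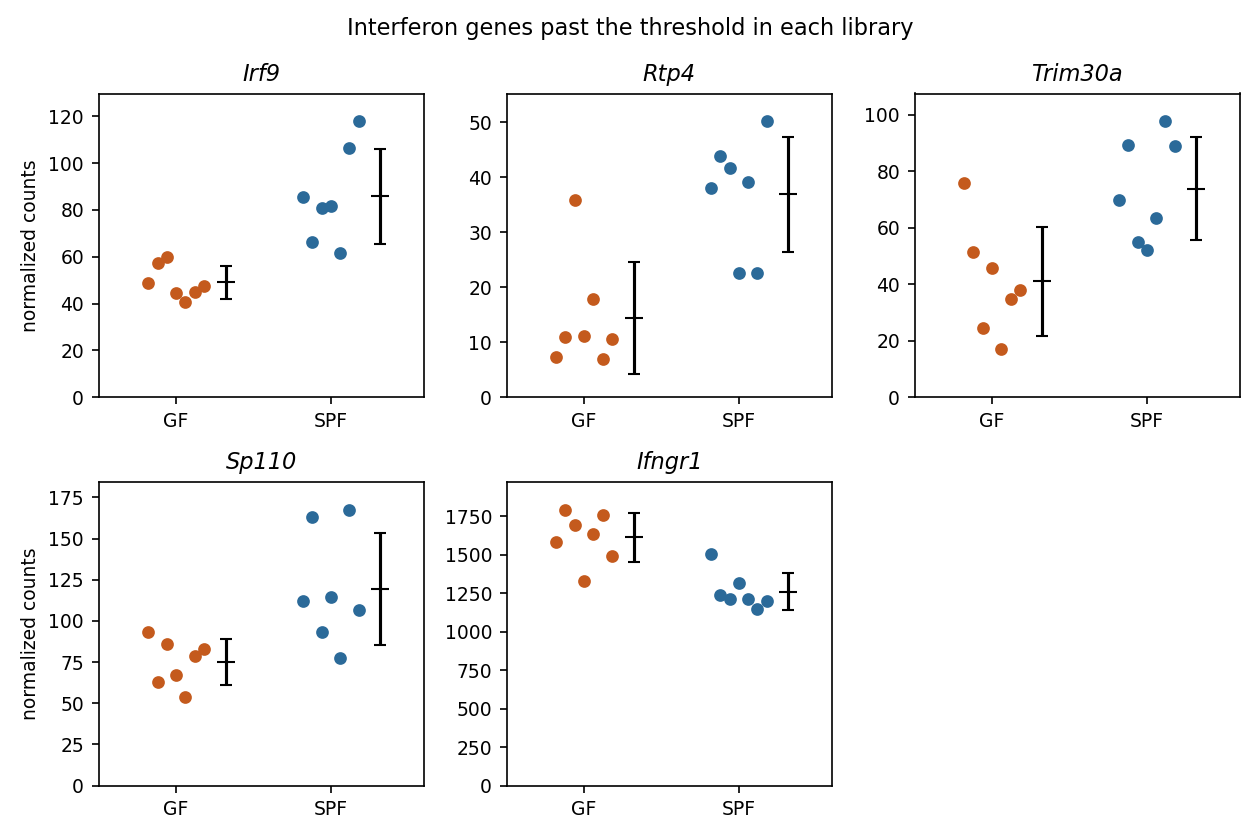
Normalized counts (y axis) of the 5 interferon genes past the threshold in each library, with GF on the left and SPF on the right. Points are libraries and bars are the mean ± SD of 7. Irf9 is the one panel whose groups do not overlap, with 59.8 as the highest GF value and 61.8 as the lowest SPF value.

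No sensor of viral nucleic acid passed in limma, where 6.73% of all genes tested did, and 0 had an unadjusted p under 0.05. Only 4 of 12 sensors reached the minimum mean, and all 4 had a log2 difference below 0. Ddx58, which encodes the RNA sensor RIG-I, lay between 3.12 and 30.7 normalized counts in GF, with a median of 19.9, against 14.2 to 38.9 in SPF, with a median of 23.8 (log2 difference -0.64 ± 0.39 SE, adjusted p = 0.354). Ifih1, which encodes the long RNA sensor MDA5, lay between 1.05 and 12.1 in GF, with a median of 7.29, against 1.67 to 28.9 in SPF, with a median of 7.77 (log2 difference -0.76 ± 0.59 SE). Dhx58, a relative of both that lacks the signalling domain, averaged 16.9 in GF and 22.5 in SPF, a log2 difference of -0.49 ± 0.39 (SE). Eif2ak2, the kinase that halts translation on double-stranded RNA, lay between 27.8 and 76.7 in GF, with a median of 50.8, against 34.3 to 82.2 in SPF, with a median of 59.3. Its log2 difference was -0.20 ± 0.24 (SE), and it turned to 0.03 with length and GC trends removed. The groups overlapped widely for all 4.

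The other 8 sensors stood at a few reads per library. Oas1a and Oas1g, synthases of the second messenger that activates RNase L, reached 16.3 and 12.1 in GF, against 12.4 and 8.87 in SPF. Their values were the same in 6 of 14 libraries and were whole reads in 3 and 4 of 14, so the counts of these near-identical copies are uncertain. Oas2 reached 4.98 in GF and 5.91 in SPF, and Oas3 was at 0 in 13 libraries, with 1.41 in SPF 7. Oasl1 and Oasl2, of the same family, reached 5.20 and 4.98 in GF and 12.1 and 11.9 in SPF. Zbp1, a sensor of Z-form nucleic acid, was at 0 in 4 libraries of each group and held 20 read equivalents over the GF libraries and 26 over the SPF libraries. Ifi204, a DNA sensor, reached 7.36 in GF and 10.2 in SPF.

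Antiviral effectors were the largest role, with 13 of 21 genes tested and 1 call. That is 7.69% of those tested, near the 6.73% called either way over all genes tested. Rtp4, an interferon-induced gene whose protein also aids transport of receptors to the cell surface, lay between 6.94 and 35.9 normalized counts in GF, with a median of 10.9, against 22.5 to 50.2 in SPF, with a median of 39.2. In 6 of 7 GF libraries it stood below every SPF library, and GF 3 was the exception. The log2 difference was -1.41 ± 0.33 (SE, adjusted p = 0.0101), a fold of 0.376 with an interval of 0.233 to 0.605. It missed the threshold without GF 1, GF 6 and SPF 2 (adjusted p = 0.0852) and passed in the other 26 settings that tested it.

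Effectors that missed the threshold differed in size and sign. Xaf1, which opposes an inhibitor of apoptosis, lay between 12.2 and 29.7 in GF, with a median of 17.7, against 20.8 to 57.1 in SPF, with a median of 32.6 (log2 difference -0.80 ± 0.29 SE, adjusted p = 0.0927). Slfn2, a schlafen gene that keeps mouse T cells quiescent, lay between 18.2 and 60.2 in GF, with a median of 45.8, against 10.9 to 38.7 in SPF, with a median of 26.6. Its log2 difference was 0.79 ± 0.31 (SE, adjusted p = 0.126), with 5 of 7 GF libraries above every SPF library, and it passed without GF 4 (adjusted p = 0.0439). The values of Xaf1 and Slfn2 were whole reads in 6 of 14 libraries each, so their counts are uncertain. Slfn8, a relative of Slfn2, averaged 69.5 in GF and 92.4 in SPF, a log2 difference of -0.40. Ifit3, of a family that restrains translation of viral RNA, averaged 10.2 in GF and 20.8 in SPF (log2 difference -1.12 ± 0.47 SE, adjusted p = 0.155). Ifitm3, which blocks viral entry, averaged 12.7 in GF and 20.8 in SPF, a log2 difference of -0.89. Mx2, of the dynamin-like GTPase family, averaged 6.55 in GF and 11.9 in SPF, a log2 difference of -0.76. Its row is a non-coding RefSeq transcript, so no antiviral function is implied for Mx2 here. In each of these 4 genes 4 GF libraries lay below every SPF library, and the others overlapped. Bst2, which encodes tetherin, the tether of budding virions, lay between 166 and 318 in GF, with a median of 261, against 180 to 289 in SPF, with a median of 247. The interval of its fold ran from 0.817 to 1.22. Isg15, a ubiquitin-like modifier, averaged 16.3 ± 9.27 in GF and 18.0 ± 12.8 in SPF (SD, n = 7 each), and its interval, from 0.550 to 1.68, was wide. Ifi35, Ifi27l2a and the guanylate-binding gene Gbp3 averaged 70.6, 21.9 and 26.3 in GF, against 76.3, 31.1 and 20.9 in SPF, and did not pass.

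Cxcl10, a chemokine gene that attracts T cells, stood far higher in SPF 3 than in any other library. It was at most at 12.1 normalized counts in any GF library, against 166 in SPF 3, 29.4 in SPF 6 and at most 3.53 in the other SPF libraries. The medians were 1.74 in GF and 2.51 in SPF, and the groups did not differ past the threshold (log2 difference -0.75 ± 0.90 SE, adjusted p = 0.681). Without SPF 3 the mean of Cxcl10 fell under the minimum, and the gene was not tested.

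Among regulators, Trim30a and Sp110 fell, 2 of the 7 tested, where 3.05% of all genes tested were called lower. Trim30a, a ubiquitin ligase gene that dampens Toll-like receptor signalling in mice, lay between 16.9 and 76.0 normalized counts in GF, with a median of 37.9, against 52.2 to 97.8 in SPF, with a median of 69.8. In 6 of 7 GF libraries it stood below every SPF library, and GF 1 was the exception. The log2 difference was -0.92 ± 0.26 (SE, adjusted p = 0.0306), a fold of 0.528 with an interval of 0.365 to 0.765. Trim30a values were whole reads in 9 of 14 libraries, so its count is partly uncertain. The call was lost when GF 3, GF 5, SPF 2, SPF 6 or SPF 7 was left out (adjusted p at most 0.0722) and with length and GC trends removed (adjusted p = 0.152). Sp110, a nuclear body gene linked to control of mycobacteria in mice, lay between 54.1 and 93.3 in GF, with a median of 79.0, against 77.3 to 168 in SPF, with a median of 112. The log2 difference was -0.63 ± 0.18 (SE, adjusted p = 0.0354), and 3 GF libraries stood below every SPF library. Its values were whole reads in 1 of 14 libraries, so its count is uncertain. The call was lost when GF 2, GF 4, GF 5, SPF 2, SPF 4, SPF 6 or SPF 7 was left out (adjusted p at most 0.0902).

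The remaining 5 regulators did not pass. Usp18, which removes Isg15 from proteins and damps the type I receptor, lay between 1.05 and 12.9 in GF, with a median of 4.16, against 4.05 to 15.0 in SPF, with a median of 9.89 (log2 difference -1.03 ± 0.47 SE, adjusted p = 0.199). Trim25, a ubiquitin ligase gene of the RIG-I pathway, lay between 21.7 and 50.5 in GF, with a median of 33.9, against 18.9 to 39.5 in SPF, with a median of 27.0 (log2 difference 0.36 ± 0.25 SE, adjusted p = 0.423). Parp9 and Parp14, ADP-ribosyltransferase family genes, averaged 32.4 and 48.6 in GF, against 40.1 and 49.1 in SPF. Sp100, a nuclear body gene, averaged 10.4 in GF and 9.70 in SPF.

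**Figure D3:**
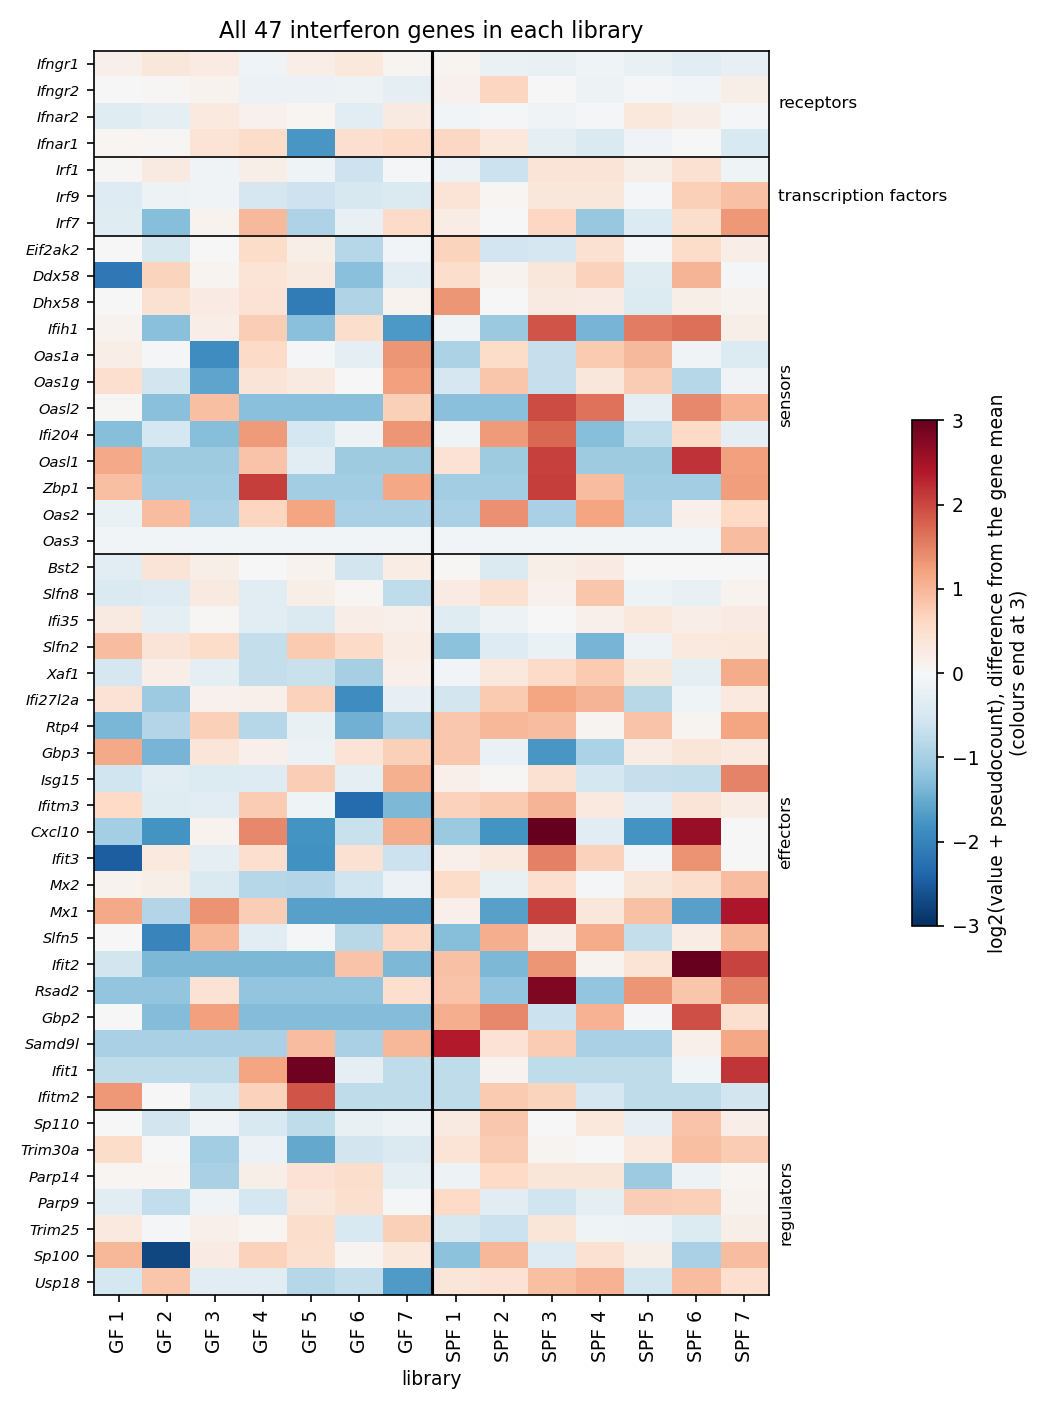
All 47 interferon genes (rows, by role) in the 14 libraries (columns, GF left of the line and SPF right), coloured by the difference of log2(value + pseudocount) from the gene's mean. Cxcl10, Rsad2, Oasl2 and Ifi204 are among the genes highest in SPF 3, and Ifit2 is highest in SPF 6.

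The 16 list genes under the minimum mean, 8 sensors and 8 effectors, held few reads, and the most in 3 SPF libraries. Summed over the 16, a GF library gave between 14.8 and 59.9 normalized counts, with a median of 46.3, against 42.9 to 107 in SPF, with a median of 58.8. The highest sums were those of SPF 3 at 107, SPF 7 at 102 and SPF 6 at 84.4, and the other 4 SPF libraries lay within the GF range. Ifit2, an interferon-induced RNA-binding gene, was at 0 in 5 GF libraries and 1 SPF library, with at most 5.21 in GF and 27.7 in SPF. Rsad2, which encodes viperin, was at 0 in 5 GF libraries and 2 SPF libraries, with at most 3.15 in GF and 21.2 in SPF. Gbp2, a guanylate-binding gene that interferon gamma also induces, was at 0 in 5 GF libraries and above 0 in all 7 SPF libraries. In read equivalents over 7 libraries these 3 genes had 4, 6 and 9 reads in GF and 74, 56 and 44 in SPF, while SPF was 1.21 times as deep. Of the 16 genes, 14 had more reads in SPF, and Ifit1 and Ifitm2 had more in GF. Ifit1 reached 16.9 in GF and 9.23 in SPF, and Ifitm2 7.66 in GF and 2.76 in SPF. In normalized counts, which allow for depth, Oas1a too averaged slightly higher in GF, at 6.84 against 6.63 in SPF, as did its copy Oas1g. Mx1 is, in the common inbred strains, a defective antiviral gene, and reached 9.96 in GF and 22.6 in SPF. Samd9l and Slfn5 reached 4.21 and 9.96 in GF and 13.3 and 10.9 in SPF. None of the 16 passed when all 14069 genes with a value above 0 were tested, and 3 had an unadjusted p under 0.05. The shares of all genes this low with more reads in SPF, or with such a p, were not worked out. These counts therefore cannot be called particular to the list.

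Apart from the receptors, 34 of 43 list genes had their highest value in an SPF library and 9 in a GF library. The share of all genes of similar level with their highest value in an SPF library was not worked out. The lean to SPF in this count therefore cannot be called particular to the list. SPF 3 and SPF 7 held the highest value of 8 genes each and SPF 6 of 7. SPF 5, the deepest library at 1634063 read equivalents, held 2. The next deepest were SPF 7 at 1487736 and SPF 3 at 1320354. The part of depth in these counts was not tested. The highest values in SPF 3 were of Cxcl10, Ifit3, Rsad2, Oasl2, Ifih1, Ifitm3, Ifi27l2a and Ifi204.

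**Figure D4:**
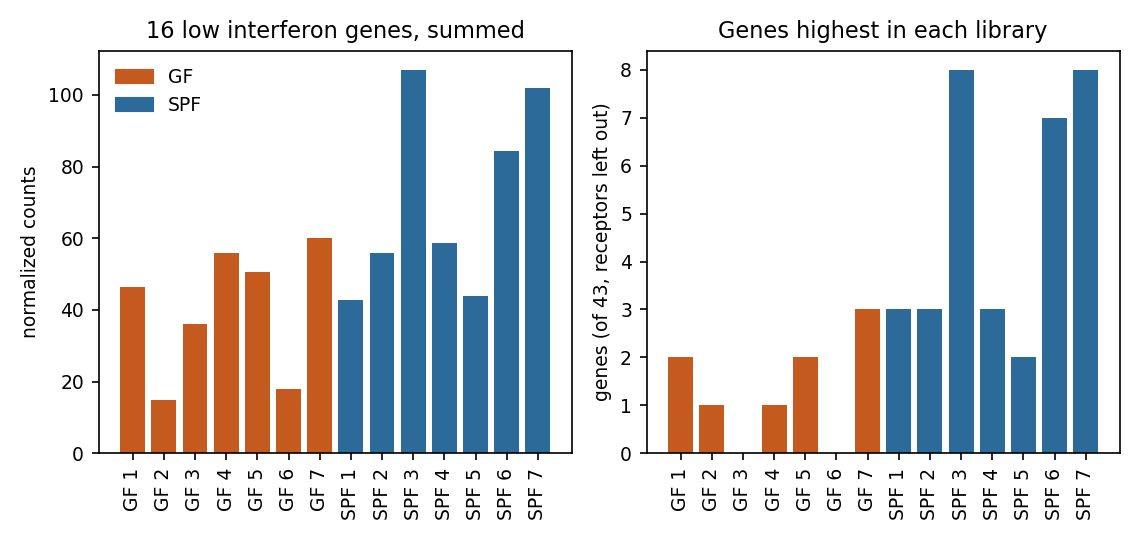
Left, the summed normalized counts of the 16 interferon genes under the minimum mean in each library, with GF in orange before SPF in blue. Right, the number of the 43 non-receptor genes whose highest value lay in that library. SPF 3, SPF 6 and SPF 7 stand highest in both panels. The same values for all genes of similar level were not worked out.

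Genes with an ISRE core in the promoter window and those without were set side by side. The 11 tested list genes with the core had a median log2 difference of -0.64, and 10 lay below 0, and of these Trim30a passed. The 13 tested list genes with a promoter and no core, 4 receptors among them, had a median of -0.12, and 8 lay below 0, with Irf9 and Sp110 lower and Ifngr1 higher. Over all 253 tested genes with the core the median was -0.04, with 6 genes called lower and 7 higher. Level was not matched between the groups. Under a mean of 28.9 normalized counts lay Cxcl10, Ddx58, Gbp3, Ifih1, Ifit3, Ifitm3 and Isg15 with the core. Irf7, Sp100 and Xaf1 lay there without it. Tested list genes under that mean had a median of -0.75, the value of Cxcl10, and the others -0.12. Cxcl10 was among the tested genes with the core only through its value in SPF 3. The part of level in this contrast was not tested.

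Other interferon-induced genes gave few calls. Of 48 tested from a list of 69, B2m and Ccl12 fell and 0 rose in limma, beside 3.05% lower and 3.68% higher over all genes tested. At an unadjusted p under 0.05, 11 of the 48 lay lower and 3 higher, where all genes tested gave 11.1% and 10.8%. Below 0 lay 33 of the 48, with a median log2 difference of -0.21. B2m, the light chain of class I molecules, lay between 1215 and 1948 normalized counts in GF, with a median of 1366, against 1955 to 2428 in SPF, with a median of 2213 (log2 difference -0.63 ± 0.09 SE, adjusted p = 0.000140). Ccl12, a chemokine gene that attracts monocytes, reached at most 39.3 in GF, with a median of 33.6, against 44.3 to 114 in SPF, with a median of 71.4 (log2 difference -0.98 ± 0.22 SE, adjusted p = 0.00598). Neither overlapped between the groups, and both stayed past the threshold in all 28 other settings. Of 7 tested class II genes linked to interferon gamma, H2-DMb1 rose, with 261 to 400 in GF and 115 to 285 in SPF, and all 7 lay above 0, with a median log2 difference of 0.80. H2-Aa and H2-Eb1 reached the minimum mean only through GF 1, and without it they were not tested. Over the same 7 genes without GF 1 the median was 0.27 and 6 of the 7 lay above 0, with H2-Eb1 at -0.06. H2-DMb1 still passed in limma without GF 1 (log2 difference 0.67, adjusted p = 0.0204). It missed the threshold in limma without a mean trend (adjusted p = 0.0801) and with length and GC trends removed (adjusted p = 0.0641). The values of H2-DMb1 were whole reads in 5 of 14 libraries, so its count is uncertain. GF 1 held 931 normalized counts of H2-Aa and 653 of H2-Eb1, against at most 8.97 and 8.07 in the other GF libraries. Among list genes, GF 1 had the highest value of all 14 libraries for Gbp3, at 46.8, and for Slfn2, at 60.2, and the highest GF value for Trim30a.

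By the RefSeq table of GRCm38.p6, several list genes share a chromosome. Chromosome 16 carries 8 of the 47 genes, among them 3 receptor chains, Ifnar1, Ifnar2 and Ifngr2, and chromosome 11 carries 8 others. Chromosome 5 carries 7, 6 of them of the Oas family. The 5 genes past the threshold lie on chromosomes 1, 7, 10, 14 and 16, on a chromosome each.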

How the data were processed

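The deposited values are a normalized signal per RefSeq transcript, made by the authors from 3' end libraries. Alignment used TopHat and mm9, per the submitters' processing notes, and no source used here gives the counting or scaling. Within a library between 84.5% and 86.7% of positive values were whole multiples of 1 step, within 0.01 of a read, taken as the value of a read. Depth is the total over genes divided by that step. Whole reads were not recovered for the rest, so no count model was run. The use of strand is not given, so overlapping and antisense genes cannot be told apart. The table had 18487 rows and 14217 genes, and 18119 rows matched the RefSeq table of GRCm38.p6 by accession. As mm9 is another build, coordinates are given for RefSeq promoters only.

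Differences are GF minus SPF in log2(value + 1.44), which understates changes of low genes. Genes with a mean of at least 7.22 were tested two-sided in R 4.3.3 by limma (3.58.1), its prior variance following the mean, with Benjamini-Hochberg adjustment over all genes tested and a threshold of 0.05. The procedure was also run on simulated counts, drawn independently for each gene and library. No result here rests on that run. Groups came from sample titles. The labels do not say that libraries came from separate animals and give no sex, cage or batch, so p-values measure the spread between these libraries. The list, its roles and the other lists were chosen with earlier results of these data known.

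Named with their values in each group were the list genes past the threshold, then in each role the next 2 by p and the highest in mean, with other genes by means, ranges or differences. Of other interferon-induced and class II genes, those past the threshold were named. Results on some signalling genes are not reported here. In 28 other settings the pseudocount, the filter, the scaling (upper quartile, TMM or quantile), the test, the rows, the libraries, the replicate numbers as blocks, and length and GC trends were changed.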

Additional observations from a re-analysis of the deposited data

Results flagged for a closer look

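Among 68 groups of 7 libraries, for the 31 tested list genes and for B2m, Ccl12 and H2-DMb1, 7 held a library far from the others on the log2 scale (a gap to its nearest neighbour above Dixon's 95% critical share of the range). Chance flags about 1 in 20 groups. Ifnar1 stood at 13.9 normalized counts in GF 5, against 51.4 to 74.7 in the other GF libraries. Slfn2 stood at 18.2 in GF 4, against 36.3 to 60.2, and Sp100 at 0 in GF 2, against 8.68 to 17.7. In SPF, Ifngr2 stood at 691 and Bst2 at 180 in SPF 2, against 398 to 501 and 240.4 to 289 in the other SPF libraries. Dhx58 stood at 46.0 in SPF 1, against 12.8 to 21.2, and Usp18 at 4.05 in SPF 5, against 8.84 to 15.0. SPF 2 was the one library with 2 of the 7 values.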

How the results depend on the processing

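The 4 falls and 1 rise in the list became 2 and 0 without GF 1, GF 6 and SPF 2 and in limma without a mean trend, 2 falls with no filter on low values, and lay between 2 and 4 falls and between 1 and 2 rises when 1 library was left out. The 2 falls lost were Rtp4 and Sp110 without those 3 libraries, and Trim30a and Sp110 without the mean trend (adjusted p = 0.0801 for both) or with no filter (0.0565 and 0.0536). Sp110 also missed the threshold with array weights (adjusted p = 0.0512). The list's median log2 difference lay between -0.42 and -0.21 without 1 library and moved to -0.12 with the minimum mean 4 times higher. Over all genes the 325 rises and 269 falls lay at 242 to 337 and 170 to 290 without 1 library. They were 160 and 160 in limma without a mean trend and 154 and 165 without GF 1, GF 6 and SPF 2. Rises were 198 with length and GC trends removed, and 181 with the replicate block as well. The numbers pair no samples (7 pairs, correlations of deviations between -0.06 and 0.05), and with the replicate block alone the list again had 4 falls and 1 rise.

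Differences near 0 changed sign. Parp14 turned to 0.00033 with the pseudocount 10 times lower, 0.018 under quantile normalization, 0.035 with array weights, 0.19 with length and GC trends removed, with or without the replicate block, and -0.18 to 0.16 without 1 library. Sp100 turned to -0.33 with the pseudocount 10 times lower, -0.0060 with array weights, -0.032 without GF 1, GF 6 and SPF 2, and -0.19 to 0.47 without 1 library. Isg15 turned to 0.089 under quantile normalization, 0.11 without GF 1, GF 6 and SPF 2 and -0.24 to 0.18 without 1 library. Bst2 turned to 0.00997 with array weights, 0.10 without those 3 and -0.075 to 0.088 without 1 library, Ifnar2 to 0.047 without those 3, and Eif2ak2 to 0.027 with length and GC trends removed, with or without the block. The causes were not tested. Low depth limits the 16 genes under the minimum mean.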
